A study of Mus musculus with 12 samples.

Results

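Kidney cortex of control mice was compared between 24 and 12 weeks of normal diet and corn oil, across all measured genes and across gene lists for the pathways and cells of the cortex. The comparison rests on the 3 libraries titled as controls at 24 weeks and the 3 titled as controls at 12 weeks, which are 6 of the 12 libraries of the series. The other 6 libraries come from mice given CCl4 (carbon tetrachloride), which injures the liver, together with a Western diet for the same 12 or 24 weeks, as a model of non-alcoholic steatohepatitis (NASH), a fatty and inflamed liver disease. All mice were C57BL/6J, RNA was taken from whole cortex, and RNA integrity was above 7.5. Per the labels, the control group had 6 mice (3 male, 3 female) at 12 weeks and 8 mice (4 male, 4 female) at 24 weeks. The labels give neither the age at the start, the hour of dissection nor the feeding state, so time on the diet, age and these conditions cannot be told apart. Nothing says whether a library is 1 animal or a pool, so every p-value measures only the spread between these samples, which may be technical.

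The cortex is mostly proximal tubule, a segment that reabsorbs most of the filtrate and runs on fatty acid oxidation in mitochondria and peroxisomes. Peroxisome proliferator-activated receptor alpha (PPARA) is the nuclear receptor that switches on the genes of that oxidation, and in fasting also those of ketone production, while the same tubule makes glucose. Cholesterol synthesis is driven by the sterol-sensing factor SREBF2, and a circadian clock, in which Arntl and Clock or Npas2 drive Per, Cry and Nr1d genes that in turn repress them, sets daily levels of many kidney genes.

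Depth, estimated from the steps of the deposited values, ranged from 12670000 to 13740000 reads in the libraries of 12 weeks and from 10070000 to 14050000 in those of 24 weeks, and 11614 genes had values. Levels below are the deposited log2 values, on which a difference of 1 is a doubling, given in the order of replicates 1, 2 and 3. Replicate 1 stood apart from the others at both times. Xist, the RNA of the inactive X chromosome, was at 11.54, 3.93 and 4.21 at 12 weeks and at 10.66, 4.86 and 3.30 at 24 weeks. Ddx3y, a gene of the Y chromosome, was at 3.69, 9.21 and 9.62 and then at 4.25, 9.34 and 9.45. Kap, which androgens induce in the proximal tubule, was at 12.39, 18.69 and 18.53 and then at 15.09, 18.38 and 18.21. Replicate 1 was thus high in Xist and low in Ddx3y and Kap at both times, and replicates 2 and 3 the reverse. These are the levels of female RNA in replicate 1 and of male RNA in replicates 2 and 3. Results below for replicates 2 and 3 of the controls are therefore of male cortex by these genes. A difference between replicate 1 and the others cannot be told apart from sex. The labels do not say what a replicate number stands for or give the sex of a library, and same-numbered libraries are matched below. Cortex markers were present in all 6 libraries. The phosphate transporter Slc34a1 of the proximal tubule was at 16.57, 16.67 and 16.82 and then at 16.47, 16.39 and 16.44, Umod of the thick ascending limb between 13.83 and 15.30, and the podocyte gene Nphs1 between 8.54 and 9.92. Of the lists for T and NK cells and for B and plasma cells 1 gene each was measured, and of those for neutrophils and adrenal cortex 0.

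How many genes differed between 24 and 12 weeks depended on how the replicates were used. Without matching replicates, limma with Benjamini-Hochberg adjustment called 0 of 11614 genes (0%) at an adjusted p under 0.05, with 910 (7.84%) at an unadjusted p under 0.05. With the replicate number as a block, it called 20 genes (0.172%), 4 higher (0.0344%) and 16 lower (0.138%) at 24 weeks, with 2267 (19.5%) at an unadjusted p under 0.05. In replicates 2 and 3 of every group, again with the block, it called 800 genes (6.89%), of which 297 rose (2.56%) and 503 fell (4.33%), and these included all 20. The median difference of all genes was -0.08 with the block and -0.14 in replicates 2 and 3. Median-of-ratios scaling brought the latter to -0.01 and the split in replicates 2 and 3 to 407 higher and 239 lower, and quantile normalization gave 411 higher and 328 lower. The calls were fewer when 1 library was left out. Replicates 2 and 3 then gave 128 calls without the 12-week replicate 2, 197 without the 12-week replicate 3, 89 without the 24-week replicate 2 and 113 without the 24-week replicate 3. In the block fit of 20 calls, leaving out any of these 4 libraries gave 0 calls, leaving out the 12-week replicate 1 gave 68, and leaving out the 24-week replicate 1 gave 434. The 20 calls also depended on the variance model and the scaling, with 0 calls without the mean-variance trend, 4 after median-of-ratios scaling (2 higher, 2 lower), 4 after removal of length and GC trends, 8 from the control libraries alone (8 higher, 0 lower) and 32 after quantile normalization. Without the trend, replicates 2 and 3 gave 139 calls, 70 higher and 69 lower. Across all genes, the differences in replicates 2 and 3 had a Pearson r of 0.69 with each other, against 0.19 and 0.24 for replicate 1 with each of them. Over all genes, the libraries of 24 weeks all lay above those of 12 weeks for 4.72% and all below for 7.38%, while the difference was positive in all 3 replicates for 14.6% and negative in all 3 for 29.9%. Same-signed differences in replicate 1 were found for 71.4% of the 800 genes and 57.4% of all genes.

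Each of the 20 genes called with the block differed in the same direction in all 3 replicates. The 4 that rose act on stored fat or on glycerol. G0s2, an inhibitor of fat breakdown (gene 14373, mm10 chr1:193272160-193273188), was at 7.80, 8.94 and 8.67 at 12 weeks and at 9.52, 11.10 and 10.81 at 24 weeks. Plin4, a lipid droplet coat protein (gene 57435, chr17:56100591-56109802), was at 5.50, 5.19 and 3.40 and then at 9.96, 8.07 and 7.96. In both genes every library of 24 weeks lay above every library of 12 weeks. The log2 changes in the block fit of limma were 2.01 (SE 0.23, adjusted p = 0.0321) for G0s2 and 3.97 (SE 0.60, adjusted p = 0.0466) for Plin4. Pnpla2, the lipase that G0s2 inhibits (gene 66853, chr7:141455188-141460743), was at 10.21, 10.49 and 10.50 and then at 11.82, 11.21 and 11.41, a change of 1.08 (SE 0.17, limma adjusted p = 0.0466). Gpd2, the mitochondrial glycerol-3-phosphate dehydrogenase (gene 14571, chr2:57237678-57370719), was at 9.68, 9.91 and 10.02 and then at 10.44, 10.72 and 10.83, a change of 0.79 (SE 0.10, limma adjusted p = 0.0321). Neither gene had overlapping groups. Klf10, a transcription factor, was named by the rule of smallest p and did not pass (1.53, limma adjusted p = 0.055).

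The 16 genes that fell with the block were of mixed function. Hsd3b2, a 3-beta-hydroxysteroid dehydrogenase (gene 15493, chr3:98711107-98724543), was at 10.29, 10.94 and 10.93 and then at 9.31, 9.14 and 9.15. It fell by 1.52 on the log2 scale (SE 0.25, limma adjusted p = 0.0467), the largest decrease among the 16, and its groups did not overlap. Acmsd, an enzyme that diverts tryptophan breakdown away from NAD synthesis, was at 12.30, 11.36 and 11.47 and then at 11.59, 9.72 and 9.87. It fell by 1.32 (SE 0.21, limma adjusted p = 0.0466), and its groups overlapped through the 24-week replicate 1. Itga6, a laminin-binding integrin subunit, was at 12.25, 11.07 and 10.67 and then at 11.52, 9.35 and 9.55, a decrease of 1.19 (SE 0.16, limma adjusted p = 0.0321), with replicate 1 again high at both times. The changes were -1.09 for Veph1, -1.08 for the kinase Cdkl1, -0.999 for Tmem64, -0.93 for Gnpda1 of amino sugar metabolism, -0.75 for Dleu7, -0.75 for Apbb2, -0.75 for the fucosyltransferase Fut9, -0.74 for Ankib1 and -0.71 for Il13ra1, a subunit of the interleukin-13 receptor. The other 4 were Pde6a, Cnot6, Spin1 and Ankrd13c. The naming rule takes at most 12 genes in each direction, and these 4 were named to complete the count.

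**Figure D1:**
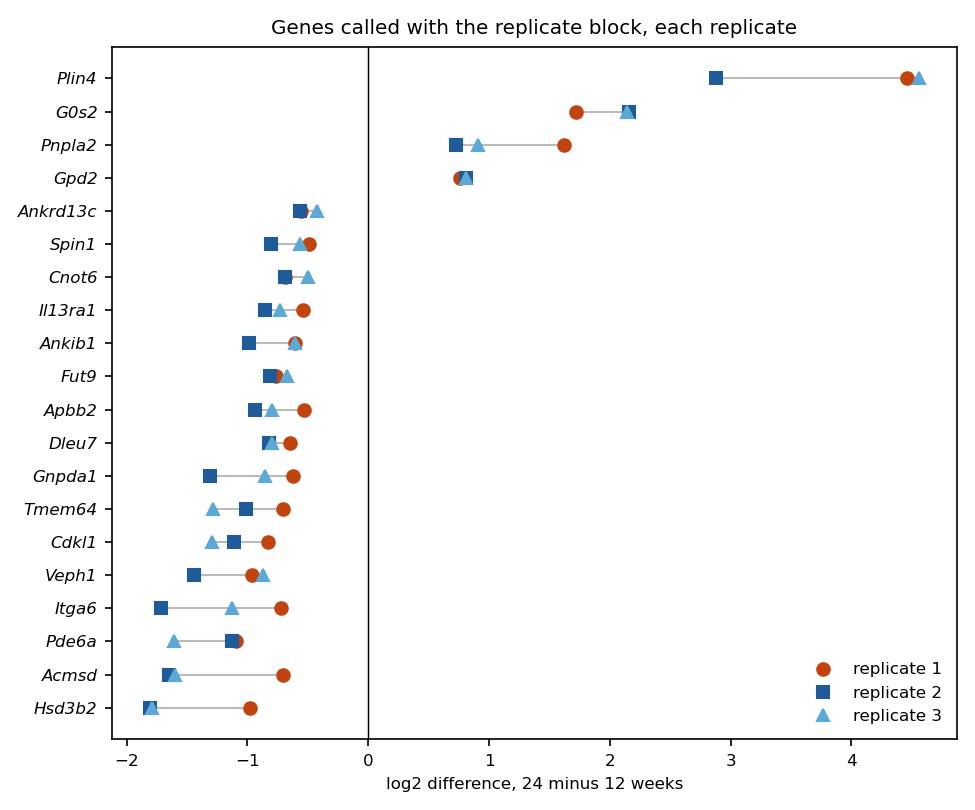
Log2 difference at 24 minus 12 weeks (x axis) in control cortex for the 20 genes called with the replicate block, 1 marker per replicate number, with a line over their range. All 3 markers of a gene lie on 1 side of 0, and Plin4 lies farthest out.

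Genes of fatty acid oxidation rose together in replicates 2 and 3. Of the 41 measured genes of the list fatty acid oxidation and PPARA targets, 31 rose and 1 fell in those replicates, beside 2.56% and 4.33% of all genes. With the block over all replicates 0 passed, although 37 of 41 had a positive difference and 27 were higher in all 3 replicates. The list's median difference was 0.14 in replicate 1, 0.84 in replicate 2 and 1.08 in replicate 3, against medians of all genes of 0.02, -0.17 and -0.11. Over the alternatives of the fit of replicates 2 and 3 its median lay between 0.86 and 1.13. The count of 31 was 22 without the 12-week replicate 2, 20 without the 12-week replicate 3, 11 without the 24-week replicate 2, 11 without the 24-week replicate 3, and 10 without the mean-variance trend.

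Pdk4, the kinase that shuts pyruvate out of the mitochondrial cycle, was at 8.47, 7.79 and 7.52 at 12 weeks and at 10.38, 11.92 and 12.00 at 24 weeks. All libraries of 24 weeks were above all of 12 weeks, and the log2 change in replicates 2 and 3 was 4.31 (SE 0.34, limma adjusted p = 0.000415). With the block over all 3 replicates the change was 3.51 and did not pass (limma adjusted p = 0.0743). Angptl4, a secreted inhibitor of lipoprotein lipase, was at 9.18, 8.64 and 8.53 and then at 10.25, 11.87 and 11.57, a rise in replicates 2 and 3 of 3.14 (SE 0.21, limma adjusted p = 0.000291). Its groups did not overlap. Angptl4, like Acot2, Vnn1 and Ppard below, lies outside the naming rule, and these were chosen after their values were seen.

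The enzymes of the pathway itself moved less. Cpt2, which completes the import of fatty acids into mitochondria, rose by 1.28 (SE 0.13) in replicates 2 and 3, and the long-chain dehydrogenases Acadvl and Acadl rose by 0.84 (SE 0.10) and 0.66 (SE 0.11). The droplet protein Plin2 rose by 1.70 (SE 0.18) and the mitochondrial carrier Ucp2 by 1.77 (SE 0.23). Cpt2 was at 11.08, 11.67 and 11.34 and then at 11.33, 12.72 and 12.84, so replicate 1 differed by 0.25 where the others differed by more than 1. The thioesterase Acot2 (8.72, 8.61 and 8.28, then 8.80, 10.50 and 10.31) and the pantetheinase Vnn1 (11.07, 11.01 and 10.58, then 10.82, 12.78 and 12.78) showed the same split. A limma fit added after this split was seen compared the change in replicate 1 with that in the others. Replicate 1 has 1 library in each group, so the spread in that fit comes from replicates 2 and 3 of all groups, and replicate 1 is assumed to vary like them. It called 34 genes (0.293%) in all, among them Acot2 (-1.88, limma adjusted p = 0.0229) and Vnn1 (-2.24, limma adjusted p = 0.0224). The member that fell was Ppard, a related receptor, at 9.73, 9.96 and 10.46 and then at 10.07, 8.21 and 8.13, a decrease in replicates 2 and 3 of 2.04 (SE 0.17, limma adjusted p = 0.000624).

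**Figure D2:**
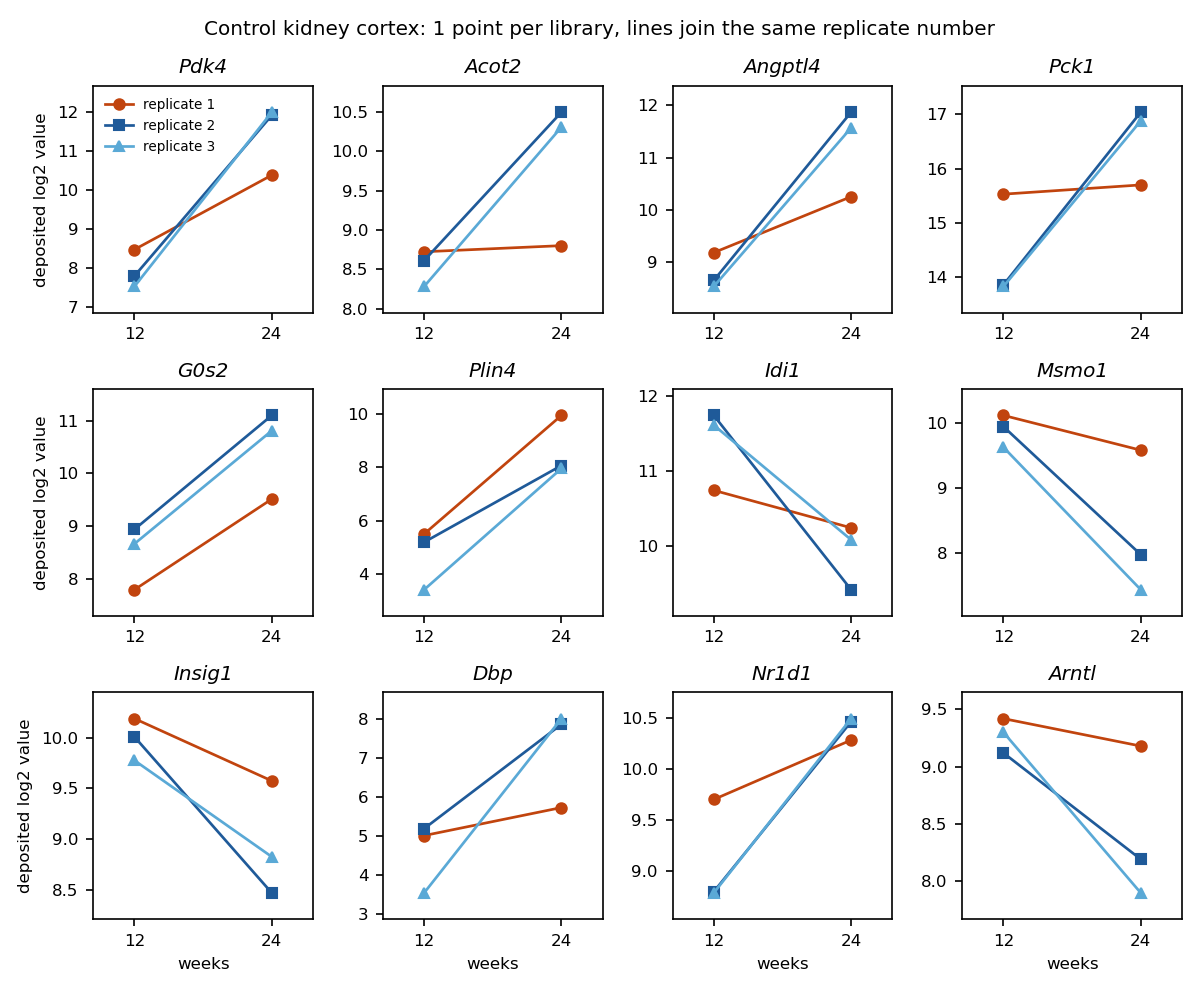
Deposited log2 value (y axis, a separate scale in each panel) of 12 genes at 12 and 24 weeks in control cortex, 1 point per library, with lines joining the same replicate number. Acot2 and Pck1 climb in replicates 2 and 3 and stay nearly level in replicate 1, while Plin4 and G0s2 climb in all 3.

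Genes of glucose production and sugar uptake moved with them in part. Of the 31 measured genes of the list gluconeogenesis and glycolysis, 9 rose and 0 fell in replicates 2 and 3. The 9 are 29% of the list, beside 2.56% of all genes. With the block 0 passed. Without 1 library the 9 became 4 (12-week replicate 2), 4 (12-week replicate 3), 3 (24-week replicate 2) and 5 (24-week replicate 3). Pck1, the entry enzyme of gluconeogenesis, was at 15.53, 13.86 and 13.83 and then at 15.70, 17.04 and 16.88. It rose by 3.12 in replicates 2 and 3 (SE 0.22, limma adjusted p = 0.000291), and the change in replicate 1 minus that in the others was -2.95 (limma adjusted p = 0.0229). The sugar transporter Slc5a10 was at 9.95, 10.72 and 10.40 and then at 10.64, 12.81 and 12.58, a rise of 2.13 in replicates 2 and 3 (SE 0.13). The fructose transporter Slc2a5, chosen after its values were seen, was at 10.27, 9.76 and 9.63 and then at 10.82, 11.61 and 11.43, a rise of 1.83 (SE 0.10). Pcx, which makes oxaloacetate, rose by 0.93 (SE 0.17), Eno1 by 0.92 (SE 0.10), the glucose-6-phosphate transporter Slc37a4 by 0.75 (SE 0.12) and the glucose transporter Slc5a1 by 1.18 (SE 0.18) in replicates 2 and 3. Oxidative phosphorylation did not move as a group: 0 of 55 measured genes passed in any of the 3 fits, and its median difference was 0.02.

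Some lipid storage genes rose at 24 weeks, beside markers of adipocytes. Of the 31 measured genes of fatty acid synthesis and lipid storage, 2 rose with the block (Plin4 and Pnpla2). In replicates 2 and 3, 12 rose (38.7%) and 5 fell (16.1%), beside 2.56% and 4.33% of all genes. In all 3 replicates 16 of the 31 were higher at 24 weeks and 4 lower. Without 1 library the 12 and 5 became 3 and 3 (12-week replicate 2), 6 and 5 (12-week replicate 3), 4 and 1 (24-week replicate 2) and 4 and 3 (24-week replicate 3). The hormone-sensitive lipase Lipe was at 7.70, 7.82 and 8.08 and then at 10.51, 10.03 and 10.23, with no overlap. It did not pass with the block (2.39, limma adjusted p = 0.0604) and rose by 2.18 (SE 0.22, limma adjusted p = 0.00155) in replicates 2 and 3. Plin5 was at 4.96, 5.69 and 6.55 and then at 6.79, 8.36 and 8.14, with no overlap and a rise of 2.13 in replicates 2 and 3 (SE 0.30). The synthesis enzymes behaved otherwise. Fasn, fatty acid synthase, was at 9.93, 10.46 and 10.21 and then at 13.59, 10.35 and 10.31, high only in the 24-week replicate 1 among the 6 libraries. Acaca makes its substrate. The change in replicate 1 minus that in the others was 3.66 for Fasn and 3.16 for Acaca, with limma adjusted p of 0.00618 and 0.00225 from the fit whose spread comes from the other replicates. They were chosen after their values were seen.

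Adipocyte markers stood beside these genes. Of the 14 measured members of the adipocyte list, 13 had a positive difference, with a median of 3.22 over all replicates and of 4.07, 2.20 and 2.30 in replicates 1, 2 and 3. Adipoq, the fat cell hormone adiponectin, was at 6.56, 2.34 and 2.40 at 12 weeks and at 10.50, 7.88 and 7.71 at 24 weeks. Cfd, the fat cell protease adipsin, was at 8.66, 3.34 and 1.67 and then at 12.98, 8.01 and 8.58. Ucp1, the uncoupling protein of brown fat, was at 5.06, 2.34 and 3.89 and then at 11.88, 4.25 and 5.66. The 24-week replicate 1 was highest in all 3, and replicates 2 and 3 were lower at 12 than at 24 weeks. Ucp1 was chosen after its values were seen. Over all genes 2.56% rose and 4.33% fell in replicates 2 and 3. With the block 1 of the 14 passed (Plin4), and in replicates 2 and 3, 6 rose and 1 fell, which became 3 and 0, 3 and 1, 3 and 0, and 2 and 0 without the 12-week replicates 2 and 3 and the 24-week replicates 2 and 3. Adipoq rose by 5.42 (SE 0.67) and Cfd by 5.79 (SE 0.76) there (limma adjusted p = 0.00379 and 0.00497). The log2 of the list's summed level, which Lpl leads, was 13.1, 14.4 and 14.2 at 12 weeks and 15.4, 13.9 and 13.8 at 24 weeks, higher at 24 weeks in replicate 1 and lower in replicates 2 and 3. Lpl itself fell by 0.68 in those. The part of adipocyte RNA in the rise of Plin4, G0s2, Pnpla2, Lipe, Cidec or Fabp4 was not tested. The median of the fatty acid oxidation and PPARA targets was 0.14, 0.84 and 1.08 in replicates 1, 2 and 3, beside the adipocyte medians of 4.07, 2.20 and 2.30. Replicate 1 is 1 library at each time, and whether these lists are linked was not tested.

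Cholesterol synthesis fell in replicates 2 and 3. Of its 24 measured genes 17 fell (70.8%, beside 4.33% of all genes) and 0 rose in those replicates. With the block 0 passed, although 15 were lower in all 3 replicates and 1 of 24 had a positive difference over all. The median was -0.65 over all replicates and -0.29, -1.15 and -0.73 in replicates 1, 2 and 3. It lay between -1.18 and -0.76 over the alternatives of the fit of replicates 2 and 3. The 17 became 3 without the 12-week replicate 2, 10 without the 12-week replicate 3, 2 without the 24-week replicate 2, 8 without the 24-week replicate 3 and 4 without the mean-variance trend. Msmo1, a sterol demethylase, was at 10.12, 9.95 and 9.63 and then at 9.58, 7.97 and 7.43, with no overlap, and fell by 2.09 in replicates 2 and 3 (SE 0.24, limma adjusted p = 0.00298). Idi1, the isopentenyl diphosphate isomerase, was at 10.74, 11.74 and 11.61 and then at 10.24, 9.41 and 10.08, and fell by 1.93 (SE 0.18, limma adjusted p = 0.0012). Fdps fell by 1.25, Fdft1 by 0.94 and Lss by 0.89, all in replicates 2 and 3. Hmgcs1, an early enzyme of the pathway, was at 12.83, 13.11 and 12.96 and then at 12.38, 13.15 and 13.23 and did not pass (0.16, limma adjusted p = 0.354). Insig1, the sterol-regulated anchor of SREBF2, was at 10.19, 10.01 and 9.78 and then at 9.57, 8.47 and 8.82, and fell by 1.25 (SE 0.16). Idi1, Hmgcs1 and Insig1 were chosen after their values were seen.

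Promoter sequences were searched for the letters of a sterol regulatory element, TCACNCCAC, on both strands in the 250 bases before each gene's start (RefSeq, GRCm38.p6). It occurs in 1.05% of 32851 promoters, in 1.35% of 9061 measured genes and in 1 of the 16 measured cholesterol genes in that table, Hmgcs1. The E-box letters CACGTG, which read alike on both strands, occur in 6.02% of promoters and 10.2% of those of 9061 measured genes, and in 4 of the 16 (Hsd17b7, Sc5d, Dhcr7 and Insig1). A direct repeat of the kind PPARA binds, AGGTCA followed by any base and AGGTCA again, was searched in the same way. It occurs in 0.0335% of promoters, in 0.0441% of the measured genes and in 0 of the 28 fatty acid oxidation and PPARA targets in the table. A window of Hmgcs1, which did not pass, and 1 of Insig1, which fell in replicates 2 and 3, are shown with the matching letters in capitals. The first lies at chr13:119690174-119690262 and the second at chr5:28071271-28071356, both on the plus strand.
Hmgcs1: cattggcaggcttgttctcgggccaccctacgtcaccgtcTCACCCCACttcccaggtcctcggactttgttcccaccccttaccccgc
Insig1: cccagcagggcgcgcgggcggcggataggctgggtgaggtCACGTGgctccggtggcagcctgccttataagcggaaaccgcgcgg
A match is a description of the letters and not a measured binding site.

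Clock genes moved in both directions in replicates 2 and 3. Nr1d1, Nr1d2 and Per1 of the repressing arm were called as higher and the activators Arntl and Npas2 as lower. Cry1, also of the repressing arm, was lower at 24 weeks in those replicates and did not pass. Of 16 measured genes of the core clock loop, 3 rose and 3 fell in replicates 2 and 3, and 0 passed with the block. Each count is 18.8% of the list, beside 2.56% and 4.33% of all genes. The other gene that fell is not reported here. The split of 3 and 3 was 6 and 2 after quantile normalization and 5 and 2 after median-of-ratios scaling. Leaving out 1 library left 2 and 1, 2 and 0, 1 and 1, and 1 and 0 of these directions called, for the 12-week replicates 2 and 3 and the 24-week replicates 2 and 3. Nr1d1, a repressor of Arntl, was at 9.70, 8.80 and 8.79 at 12 weeks and at 10.28, 10.46 and 10.49 at 24 weeks, with no overlap. It rose by 1.69 in replicates 2 and 3 (SE 0.13, limma adjusted p = 0.000415). Arntl, the shared activator, was at 9.42, 9.12 and 9.30 and then at 9.18, 8.19 and 7.90, and fell by 1.17 (SE 0.17, limma adjusted p = 0.00705). Npas2, its partner, was at 8.14, 8.67 and 9.08 and then at 8.23, 7.42 and 7.65, and fell by 1.34 (SE 0.20, limma adjusted p = 0.00801). In replicate 1 the differences of Arntl and Npas2 were -0.24 and 0.09. Per1 was at 9.45, 7.53 and 7.64 and then at 9.52, 8.59 and 8.47, a rise of 0.94 in replicates 2 and 3 (limma adjusted p = 0.0126). Per2 (0.57) and Per3 (0.38) did not pass there (limma adjusted p = 0.126 and 0.385). The call of Per1 was lost without any 1 of the 4 control libraries of those replicates and without the mean-variance trend.

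Among 13 measured clock output factors 3 rose (23.1%) and 2 fell (15.4%) in replicates 2 and 3, beside 2.56% and 4.33% of all genes. Dbp, a transcription factor with a deep daily rhythm in kidney, was at 5.01, 5.19 and 3.54 and then at 5.73, 7.86 and 8.01, with no overlap. It rose by 3.57 in replicates 2 and 3 (SE 0.46, limma adjusted p = 0.00482), and without the 24-week replicate 3 it did not pass (limma adjusted p = 0.0577). Nfil3, which represses genes that Dbp activates, was at 8.48, 7.93 and 8.20 and then at 8.01, 6.84 and 6.93 and fell by 1.18 (SE 0.29, limma adjusted p = 0.0477). That call was lost without any 1 of the 4 libraries, under both scalings, without the trend and without the block. Por, Herpud1 and Lonrf3 were the other 3, at 0.68, 1.15 and -1.25. The counts of 3 and 2 became 2 and 0, 3 and 0, 2 and 0, and 1 and 0 without the 12-week replicates 2 and 3 and the 24-week replicates 2 and 3. The E-box CACGTG, the letters bound by Arntl with Clock or Npas2, lies in the 250 bases before the start of 10.2% of 9061 measured genes. It was found there in 2 of 11 core clock genes in the table (Per1 and Cry1) and 3 of 12 output factors (Tef, Tspan4 and Lonrf3). Windows of 3 of these genes are shown, with the E-box in capitals, to set a repressor gene that rose beside a repressor and an output factor that did not pass. They lie at chr11:69098743-69098828 (plus strand), chr10:85185069-85185154 (minus strand) and chr15:81802506-81802591 (plus strand).
Per1: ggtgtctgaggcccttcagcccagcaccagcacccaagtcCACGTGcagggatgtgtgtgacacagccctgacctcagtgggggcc
Cry1: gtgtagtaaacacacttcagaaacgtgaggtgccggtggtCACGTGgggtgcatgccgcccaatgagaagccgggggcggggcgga
Tef: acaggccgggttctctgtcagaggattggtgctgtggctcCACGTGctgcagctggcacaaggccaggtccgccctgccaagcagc
With the same letters, Per1 was called as higher in replicates 2 and 3. Cry1 (7.02, 7.16 and 7.48, then 7.16, 6.38 and 6.08) and Tef (10.17, 10.74 and 10.77, then 10.66, 11.36 and 11.47) did not pass (limma adjusted p = 0.0629 and 0.0602). Tef was nonetheless higher in all 3 replicates, by 0.49, 0.61 and 0.70, and was called after both scalings. Per1 differed by 0.07 in replicate 1, and its call was lost without any 1 of the 4 libraries.

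Several other lists held calls in replicates 2 and 3, where 2.56% of all genes rose and 4.33% fell. Among 18 immediate early genes 5 rose in replicates 2 and 3 and 0 fell, with Jun at 1.40 (SE 0.22) and Junb at 1.63 (SE 0.30), and leaving out 1 library left 2 calls (12-week replicate 2) or 0 (each of the other 3). Of 27 cytochrome P450 genes 8 rose and 1 fell, with the fatty acid hydroxylase Cyp4a10 up by 3.04 (SE 0.47) and Cyp2a5 by 1.38 (SE 0.30), and without either library of 24 weeks 0 passed. Of 15 complement genes 3 rose (20%). They include C3, the central component, at 10.10, 8.65 and 8.38 and then at 11.92, 10.20 and 9.78, a rise of 1.47 in replicates 2 and 3 (SE 0.15, limma adjusted p = 0.00153), and adipsin among the adipocyte markers above. Of 27 interferon response genes 1 fell (3.7%, a share below that of all genes), Rsad2, by 1.50 (SE 0.21). Its replicate 1 was 0.72 higher at 24 weeks. Of these 27 genes 3 had a positive difference in replicates 2 and 3, with a list median of -0.534 there, beside -0.138 for all genes. The list medians were 0.278, -0.617 and -0.325 in replicates 1, 2 and 3.

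Genes of vitamin D and mineral handling moved both ways. The list vitamin D, klotho and phosphate had 18 measured genes, and 0 passed with the block. In replicates 2 and 3, 3 rose (Vdr, Slc20a1 and Cyp24a1) and 3 fell (Kl, Slc9a3r1 and Calb1). Each count is 16.7% of the list in replicates 2 and 3, beside 2.56% and 4.33% of all genes. Vdr, the vitamin D receptor, was at 12.46, 12.16 and 12.40 and then at 12.40, 13.05 and 13.16, a rise of 0.83 there (SE 0.14, limma adjusted p = 0.0141). Cyp24a1, which inactivates vitamin D, was at 11.31, 8.52 and 11.15 and then at 10.68, 13.31 and 12.85, a rise of 3.24 (SE 0.69, limma adjusted p = 0.0297). Replicate 1 was lower at 24 weeks in both. The 3 and 3 became 1 and 1, 2 and 1, 0 and 1, and 0 and 1 without the 12-week replicates 2 and 3 and the 24-week replicates 2 and 3. Cyp24a1 and Slc9a3r1 were named after their values were seen.

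Markers of scarring, injury and senescence gave calls in both directions. Of 40 genes of extracellular matrix and fibrosis, 1 rose (2.5%) and 4 fell (10%) in replicates 2 and 3. Of 17 genes of tubular injury and repair 1 rose and 1 fell there (5.88% each). Of 18 senescence and ageing markers 2 rose and 2 fell (11.1% each). Over all genes 2.56% rose and 4.33% fell. With the block 0 of these lists' genes passed. The median of the matrix list was 0.51, -0.28 and -0.34 in replicates 1, 2 and 3. Col1a1, the main fibrillar collagen, was at 8.29, 8.95 and 8.51 and then at 8.97, 8.38 and 8.05 and passed in no fit (-0.12 with the block, limma adjusted p = 0.885). Havcr1, the tubular injury marker KIM-1, was at 6.39, 5.27 and 4.89 and then at 4.61, 7.29 and 6.49 and did not pass (0.62, limma adjusted p = 0.711), its replicates pointing in opposite directions. Cdkn1a, the cell cycle inhibitor p21, was at 8.78, 7.23 and 7.08 and then at 9.16, 7.88 and 7.02 and did not pass (0.32, limma adjusted p = 0.757). Kl, the anti-ageing hormone klotho, was at 14.05, 13.62 and 13.66 and then at 14.16, 13.02 and 13.16. It fell by 0.55 in replicates 2 and 3 (SE 0.10, limma adjusted p = 0.0148), a call lost on leaving out any 1 of their 4 control libraries (limma adjusted p up to 0.176). Igfbp5, an insulin-like growth factor binding protein, was at 13.42, 13.31 and 13.05 and then at 13.41, 11.29 and 11.04, a decrease of 2.01 there (SE 0.18, limma adjusted p = 0.001). Itgb6 of the injured and distal tubule fell by 1.23 (SE 0.17). Ren1, renin, was at 9.79, 9.90 and 9.17 and then at 9.82, 10.16 and 9.86 and did not pass (0.33, limma adjusted p = 0.703).

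Endothelial markers ran in opposite directions between replicate 1 and the others. In this bulk tissue fewer cells of a type and less RNA per cell cannot be told apart. Of 17 endothelial genes 6 fell (35.3%, beside 4.33% of all genes) and 0 rose in replicates 2 and 3. The list medians were 0.53 in replicate 1 and -0.48 and -0.94 in replicates 2 and 3. The 6 became 2, 5, 4 and 2 without the 12-week replicates 2 and 3 and the 24-week replicates 2 and 3. Kdr, the main receptor for VEGFA, was at 10.50, 9.85 and 9.91 and then at 10.87, 8.50 and 8.42. It fell by 1.42 in replicates 2 and 3 (SE 0.13), and replicate 1 exceeded them by 1.78 (limma adjusted p = 0.0224). Ehd3 of the glomerular endothelium was at 10.05, 9.52 and 9.48 and then at 10.56, 8.49 and 8.31 and fell by 1.10 in replicates 2 and 3 (SE 0.13). Tek, Emcn, Eng and Ptprb were the other 4. The log2 of the summed endothelial level was 13.9 to 14.2 at 12 weeks and 13.0 to 14.6 at 24 weeks. In the distal tubule the calcium-binding Calb1 was at 13.48, 12.48 and 12.30 and then at 13.89, 11.30 and 10.94 and fell by 1.27 in replicates 2 and 3 (SE 0.14, limma adjusted p = 0.00264). The calcium exchanger Slc8a1 of the same segment fell by 1.49 (SE 0.23). These were the only calls among 19 measured genes of the loop of Henle and distal tubule in replicates 2 and 3. The list thus had 2 lower (10.5%) and 0 higher there, beside 4.33% and 2.56% of all genes. Of 13 podocyte genes 2 fell (15.4%), Npnt by 1.12 and Podxl by 0.65. Of 20 proximal tubule genes 3 rose (15%) and 2 fell (10%), beside 2.56% and 4.33% of all genes, with a list median of -0.18. Gatm, the first enzyme of creatine synthesis, was at 15.53, 13.82 and 13.85 and then at 14.85, 12.66 and 12.54 and fell by 1.24 in replicates 2 and 3 (SE 0.18). Macrophage and dendritic markers gave 0 calls of 16 in all 3 fits, and 1 of their 16 was lower and 1 higher in all 3 replicates. The part of changed cell shares in the other results was not tested.

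**Figure D3:**
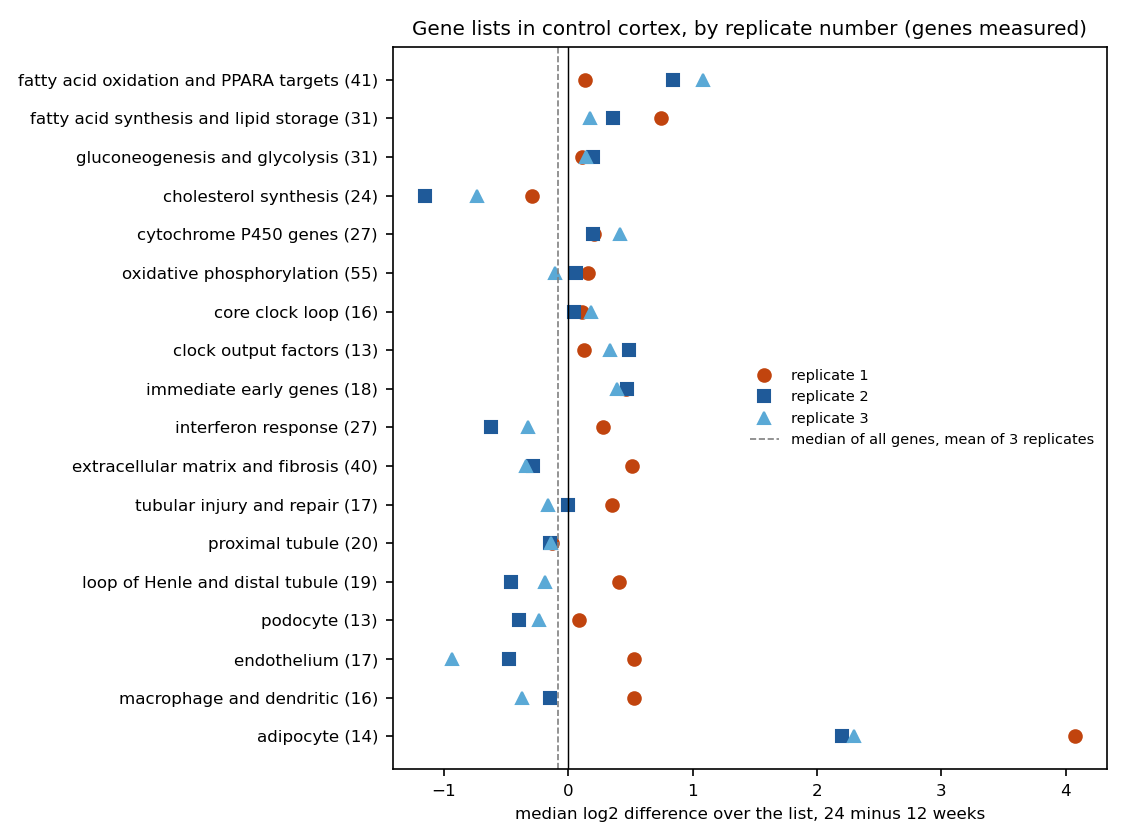
Median log2 difference at 24 minus 12 weeks (x axis) over the measured genes of 18 lists in control cortex, 1 marker per replicate number; the dashed line is the median of all genes over the 3 replicates (-0.08). Fatty acid oxidation is highest and cholesterol synthesis lowest in replicates 2 and 3 among the pathway lists, and adipocyte markers are highest in replicate 1.

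The change over the same 12 weeks in the NASH libraries, which share no library with the controls, showed which changes differed between the groups. Between 24 and 12 weeks in NASH cortex, limma called 596 genes (5.13%) in replicates 2 and 3, 2.82% of all genes being higher and 2.32% lower. Of these 189 were called in the same direction in the controls, which is 31.7% of the NASH calls and 23.6% of the control calls, and 12 in the opposite one. Across all genes the changes of the groups had a Pearson r of 0.44 in replicates 2 and 3 and -0.27 in replicate 1. The difference between the time changes passed for 0 genes without the block, for 1 gene with it (0.00861%) and for 91 genes in replicates 2 and 3 (0.784%), 38 more positive and 53 more negative in the controls. The 91 became 33, 50, 12 and 4 without the control replicates 2 and 3 of 12 weeks and 2 and 3 of 24 weeks, and 167, 308, 44 and 11 without the same replicates of the NASH groups.

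Fatty acid oxidation moved in NASH as well. Of the 41 genes 28 rose and 0 fell in NASH cortex in replicates 2 and 3, beside 2.82% and 2.32% of all genes. Pdk4 rose by 4.07 there against 4.31 in the controls. The difference of 0.24 (SE 0.48) did not pass (limma adjusted p = 0.844), nor did that of Angptl4 (3.14 and 2.73, SE 0.29, limma adjusted p = 0.530). With these standard errors, the tests could not have shown small differences. Of the 24 cholesterol synthesis genes 9 fell and 0 rose in NASH cortex in replicates 2 and 3, beside 2.32% and 2.82% of all genes. Of the 31 genes of gluconeogenesis and glycolysis 2 had a more positive time change in the controls, beside 0.327% of all genes. They were Pck1, with log2 differences of 3.12 in the controls and 0.88 in NASH (difference 2.24, SE 0.31, limma adjusted p = 0.0188), and Slc5a10, with 2.13 and 0.48 (limma adjusted p = 0.0122). Of single genes outside that list, Slc2a5 stood at 1.83 and -0.54 (limma adjusted p = 0.000859), G0s2 at 2.15 and 0.42 (limma adjusted p = 0.0370), and Ppard at -2.04 and 0.50 (limma adjusted p = 0.00614). The call of Slc2a5 was kept on leaving out each of 8 libraries, that of Ppard in 7, of Slc5a10 in 6, of Pck1 in 4 and of G0s2 in 3.

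Some clock genes differed between the groups in their time change. Of 16 core clock genes 2 were more positive in the controls and 2 more negative (Npas2 and Arntl), and of 13 output factors 1 and 2, beside 0.327% and 0.456% of all genes. Dbp rose by 3.57 in the controls and fell by 2.47 in NASH (difference 6.04, SE 0.65, limma adjusted p = 0.0122), and the call was kept in 7 of 8 leave-outs. Npas2 stood at -1.34 in the controls and 1.71 in NASH (limma adjusted p = 0.00614, 7 of 8), Nfil3 at -1.18 and 2.53 (limma adjusted p = 0.0122, 6 of 8) and Arntl at -1.17 and 0.65 (limma adjusted p = 0.0163, 3 of 8). The value of Arntl in NASH did not pass (limma adjusted p = 0.0624). Nr1d1, at 1.69 and 0.49, was positive in both groups (difference 1.19, limma adjusted p = 0.0266), and Per1 rose in both, by 0.94 and 0.74 (limma adjusted p of the difference 0.701). Nfil3 was also the gene that differed with the block over all replicates, by -3.24 (limma adjusted p = 0.0340). The hour of dissection is not given in the sources used here for either group, so it and the group cannot be told apart.

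**Figure D4:**
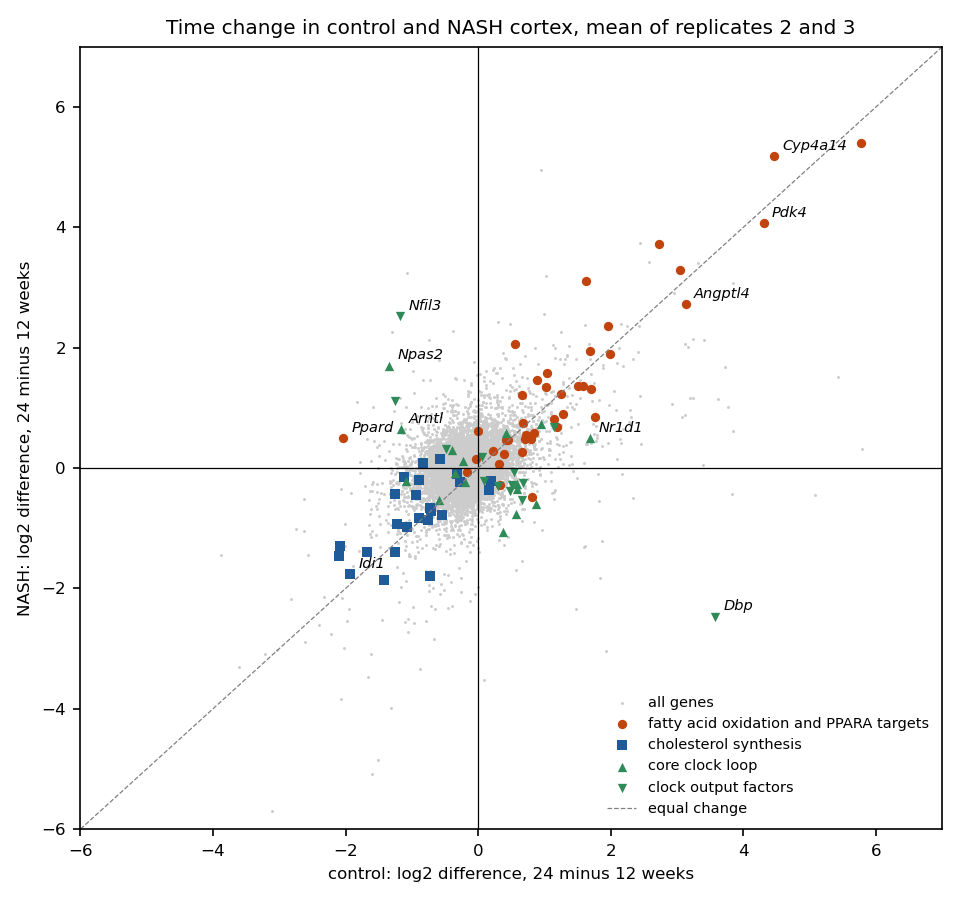
Log2 difference at 24 minus 12 weeks in control (x axis) and NASH cortex (y axis), mean of replicates 2 and 3, 1 point per gene, with 4 lists coloured and equal change as a dashed line. Angptl4, Pdk4 and Cyp4a14 lie near the dashed line, while Dbp, Npas2, Nfil3 and Ppard have opposite signs in the groups.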

How the data were processed

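RNA sequencing of mouse kidney cortex gave 12 libraries, of which the 3 control libraries at each of 12 and 24 weeks are compared here. The deposited files hold 1 normalized log2 value per gene and library, per the file headers, for 11614 genes. Per the submitters' processing notes, BWA and limma were used with build mm10; versions, the role of each tool and the normalization are not given in the sources used here. Of the low values, 87.2% to 91.0% in the control libraries were whole multiples of 1 step per library, within 0.01 steps and below 60, from which depth was estimated. Every gene reaches log2 6.64 in some library, as a filter on low genes would leave. Gene symbols that had become dates (16) were repaired, and starts were raised by 1.

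The deposited log2 values were fitted unchanged with limma 3.58.1 in R 4.3.3 (4 group means over all 12 libraries, mean-variance trend, 2-sided moderated tests, Benjamini-Hochberg over all genes, called at an adjusted p under 0.05), without and with the replicate number as a block, and in replicates 2 and 3 of every group with the block. Figures used Python 3.11.15 and matplotlib 3.10.9. The scripts were tested on simulated data. All 18 same-numbered pairs of libraries had correlated deviations from their group means (0.19 to 0.74; controls 0.70, 0.48 and 0.64), which was the ground for matching; control replicates 2 and 3 also correlated crosswise (0.23 and 0.52). Replicates differed by more than sampling noise, with squared differences at a median of 2.33 to 14.5 times its variance.

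Members, the 47 gene lists (784 of 908 listed genes measured) and tests were chosen with earlier results of these data known. Lists are described by counts and medians, without a test. Named genes are, for the fits without and with the block, those called whose mean in the higher group exceeds log2 8.62 (the median gene) and whose 3 replicates differ in 1 direction, up to 12 each way by size of change; without the block the groups must also not overlap. Where fewer than 5 passed, the 5 with the smallest p were taken. Predicted loci were not named. Without the block 0 passed, and the smallest p belonged to Pnpla2, Klf10, Gpd2, Slc27a1 and Eif4ebp1 (higher) and Il13ra1, Apbb2, Zfp488, Ccser2 and Veph1 (lower), at adjusted p of 0.323 to 0.333. For each list described, up to 6 members with the smallest p in the block fit are named, and a fixed set including Dbp, Arntl, Col1a1, Havcr1, Kl and Xist is always given. Other genes are said to be chosen after their values were seen. Alternatives covered scaling, filters, the trend, gene length and GC, the libraries in the fit and leaving out each library; those on the fit of replicates 2 and 3, on the difference between control and NASH, and the test of replicate 1 against the others were added after seeing the data. Values of a few list members are not reported here.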

Additional observations from a re-analysis of the deposited data

Results flagged for a closer look

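The time change of replicate 1 differed from that of replicates 2 and 3 in 12 genes of the lists or named above, by a limma test of the difference itself (Benjamini-Hochberg over all genes) that was added after replicate 1 was seen to stand apart. Replicate 1 has 1 library in each group, so the spread comes from replicates 2 and 3 of all groups, and replicate 1 is assumed to vary like them. Replicate 1 minus the others was positive, on the log2 scale, for Kap (3.01, adjusted p = 0.00794), Hmox1 (2.35, adjusted p = 0.0229), Calb1 (1.68, adjusted p = 0.0390), Kdr (1.78, adjusted p = 0.0224), Ehd3 (1.60, adjusted p = 0.0250), Ppard (2.38, adjusted p = 0.0224), Fasn (3.66, adjusted p = 0.00618) and Acaca (3.16, adjusted p = 0.00225). It was negative for Pck1 (-2.95, adjusted p = 0.0229), Slc2a5 (-1.28, adjusted p = 0.0305), Acot2 (-1.88, adjusted p = 0.0229) and Vnn1 (-2.24, adjusted p = 0.0224). The meaning of the replicate numbers is not given in the sources used here. By Xist and Ddx3y, control replicate 1 holds female RNA and replicates 2 and 3 male RNA, so these differences and sex cannot be told apart.

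The change from 12 to 24 weeks differed between control and NASH cortex, with the replicate block over all replicates, for Nfil3 (-3.24, limma adjusted p = 0.034). In replicates 2 and 3 the control change minus the NASH change was positive for Dbp (6.04), Slc2a5 (2.37), Pck1 (2.24), G0s2 (1.73), Slc5a10 (1.65), Cd55 (1.51), Nudt19 (1.48), Nr1d2 (1.48), Nr1d1 (1.19) and Gpd2 (1.06). It was negative for Nfil3 (-3.70), Npas2 (-3.05), Ppard (-2.54), Lonrf3 (-2.37), Slc8a1 (-1.88), Itga6 (-1.87), Arntl (-1.81), Itgb6 (-1.40), Rbm3 (-1.29), Ehd3 (-1.19) and Tmem64 (-1.16). The limma adjusted p of these ran from 0.000859 (Slc2a5) to 0.0433 (Slc8a1).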

How the results depend on the processing

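The counts of genes called moved with the use of the replicates. Without the replicate block the count of 0 was 1 from control libraries only, 0 to 3 on leaving out 1 library, 20 with the replicate block and 755 in replicates 2 and 3 without a block. With the replicate block the count of 20 was 32 after quantile normalization, 4 after median-of-ratios scaling, 4 after length and GC trends were removed, 8 from control libraries only, 0 without the mean-variance trend, 0 without the block, 800 in replicates 2 and 3, and 0 to 434 on leaving out 1 library. In replicates 2 and 3 the 800 was 139 without the trend, 3227 from control libraries only and 89 to 197 on leaving out 1 library. The difference from the NASH time change, 0 genes, was 1 with the replicate block, 91 in replicates 2 and 3 with it and 73 without it, and the 91 was 4 to 308 on leaving out 1 library. Of the single-gene and list values under the alternatives, 7555 kept direction and side of the threshold or, for list medians, moved by less than the spread between replicates, 581 lost the call, 307 gained it, 344 moved, and 0 called genes changed sign. Values that did not pass, among them Col1a1, Havcr1, Umod and the list median of oxidative phosphorylation, changed sign under some alternatives. In replicates 2 and 3 of every group 3 residual degrees of freedom remain, and a lone library left in a group is assumed to vary like the others. The fit that gave 3227 holds only the 4 control libraries of those replicates, so fewer degrees of freedom remain. Its spread rests mostly on that shared across genes, and its count is not comparable with the 800. Depth was estimated, not given, and low genes such as Cfd carry the counting error of few reads at 12 weeks.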
